A study of Mus musculus with 12 samples.

Results

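The genes described here encode cytosolic elongation factors and other abundant proteins whose mRNAs are counted among the TOP mRNAs. They were chosen by symbol, as the 9 entries Eef1a1, Eef1b2, Eef1d, Eef1g, Eef2, Tpt1, Pabpc1, Gnb2l1 (now named Rack1) and Nap1l1 of the 23420 gene symbols in the 2 count tables, and all 9 passed the filter on low counts in each comparison. The data come from R1 mouse embryonic stem cells, kept on gelatin in medium with serum and LIF, 48 h after transfection. Controls received control siRNAs, and knockdown cells siRNAs that target Krr1, whose product helps to assemble the small subunit of the ribosome. Controls are named siGFP, siNC and Lipo. Knockdown lysates are named siKrr1 A, C and D after their columns in the tables. The name Lipo states no siRNA, although the labels speak of 3 control siRNAs. Every lysate was used both for RNA-seq, with fragments cut to 40 to 60 nt, and for sequencing of the mRNA pieces of about 30 nt that ribosomes protect (ribosome footprints), giving 12 libraries, 3 per group and assay.

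A TOP mRNA begins with a cytosine at its cap followed by an unbroken run of pyrimidines, the terminal oligopyrimidine tract. Through this tract the mRNAs of ribosomal proteins, elongation factors and a few other proteins are translated or held back together, depending on mTORC1 and on the cap-binding protein Larp1. During elongation, eEF1A (Eef1a1) brings aminoacyl-tRNA to the ribosome, the eEF1B complex recharges eEF1A with GTP (Eef1b2 and Eef1d are its exchange factors and Eef1g its scaffold), and eEF2 (Eef2) moves the ribosome along the mRNA.

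Because the tract defines the class, the bases around the annotated start of transcription are shown for the members found by symbol in a RefSeq table of promoters (build GRCm38.p6, equal to mm10 in coordinates). These were 6 of 9. Each line gives 30 bases, 5 before the start and 25 from it on, with the longest C-led run of C and T in the window in capitals.
Eef1a1 (chr9:78481700-78481729, minus strand): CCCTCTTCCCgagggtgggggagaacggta
Eef1b2 (chr1:63176826-63176855, plus strand): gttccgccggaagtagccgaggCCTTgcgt
Eef2 (chr10:81176626-81176655, plus strand): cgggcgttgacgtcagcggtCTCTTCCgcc
Tpt1 (chr14:75845251-75845280, plus strand): acgacagttCCgggggagccgcggacggtg
Gnb2l1 (chr11:48800355-48800384, plus strand): tCTTTCTTTTTCTCCacagggtcgtggtgg
Nap1l1 (chr10:111473222-111473251, plus strand): cgggtCTTTTTTagcgccatctgctcgcgg
Gnb2l1 and Nap1l1 had a C followed by at least 4 pyrimidines at the annotated start itself, as did 2.51% of all 32851 windows of the table, searched on the strand of the gene. In Nap1l1 the run began at the start and was 7 bases long, and 1.08% of all windows had one as long there. For Nap1l1 the start in the promoter table lies downstream of the first base of the gene in the RefSeq gene table (111472882), while for the other 5 genes the 2 tables give the same start. In Gnb2l1 the annotated start lay inside a longer run, and 10 bases of it followed from the start on. Eef1a1 had a run of 10 bases that spanned the start, from 5 bases before it to base 5 of the transcript, and Eef2 one of 7 bases that began at base 16 of the transcript. A run of this kind lay within 25 bases of the start in 4 of the 6 members and in 53.0% of all windows. These are annotated starts, not starts measured in these cells, so the letters describe the window only.

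The knockdown was present in every siKrr1 lysate: Krr1 RNA, as counts scaled to library size (CPM), was 155 in siGFP, 151 in siNC and 160 in Lipo but 33.7, 58.0 and 64.6 after siKrr1 A, C and D, and Krr1 footprints were at 18.9% to 37.5% of the control mean. Libraries held 31318772 to 39670139 counts on genes in RNA and 21615934 to 28911254 in footprints. The 8 embryonic stem cell markers were all expressed, at a mean of 157 to 2799 CPM in RNA, and their summed level was 7946 to 8062 CPM in controls and 6363 to 7630 CPM in siKrr1 libraries. Nanog was at 445 to 454 CPM in controls and 274 to 344 CPM after knockdown. Zfp42 and Esrrb also lay below every control, an arrangement of 13.4% of all genes tested. Pou5f1, Sox2, Utf1, Dppa5a and Tdgf1 overlapped between the groups. Fibroblast or feeder markers summed to 7.84 to 8.95 CPM and 4.44 to 9.11 CPM, with 6 of 8 under 1 CPM and Col3a1, Lum and Postn at 0. All 4 endoderm markers were under 1 CPM. Neural markers summed to 132 to 145 CPM in controls and 70.4 to 90.2 CPM in siKrr1 libraries. Mesoderm markers summed to 3.83 to 4.46 CPM and 7.35 to 15.0 CPM, and trophectoderm markers to 8.85 to 9.73 CPM and 8.50 to 16.4 CPM. Each of these sums came mostly from a single gene. Tubb3 was at 126 to 139 CPM in controls and 64.4 to 84.3 CPM after knockdown. Kdr was at 2.38 to 3.41 CPM and 5.69 to 12.3 CPM, and Tfap2c at 7.40 to 8.46 CPM and 6.99 to 12.4 CPM. The neural marker Pax6 went the other way from Tubb3, at 1.08 to 1.44 CPM and 1.45 to 3.09 CPM. The part of these shifts in the results below was not tested. As each level is a share of its own library, fewer cells of a kind and less RNA per cell cannot be told apart.

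In RNA the 9 genes differed little between control and Krr1 knockdown lysates, and none passed the test across all genes. Elongation factor mRNAs lay within a few percent of the control mean except Eef1b2, and the lower values were in Tpt1, Eef1b2, Pabpc1, Nap1l1 and Gnb2l1. With the edgeR quasi-likelihood test and Benjamini-Hochberg adjustment over 14038 genes, 0 of 9 members were called at an adjusted p under 0.05, against 4.80% of all genes, and DESeq2 also called 0. At an unadjusted p under 0.05 there were 4 members, all lower (20.9% of all genes passed in either direction and 9.83% as lower). The median log2 fold change of the members was -0.08, and that of all genes -0.00.

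The elongation factors are taken first. Eef1a1 (chr9:78478453-78481724) RNA was 2221, 2390 and 2453 CPM in the controls (always in the order siGFP, siNC, Lipo) and 2515, 2579 and 2229 CPM after siKrr1 A, C and D. The groups overlapped, with siKrr1 D beside the lowest control, and the log2 fold change was 0.05 ± 0.08 (SE; edgeR adjusted p = 0.772). Eef2 (chr10:81176631-81182509) was 2817, 2974 and 2623 CPM in controls and 2842, 3099 and 2649 CPM after knockdown. These groups also overlapped, at 2805 ± 176 and 2863 ± 226 CPM (SD, n = 3). For the translocase the log2 fold change was 0.03 ± 0.09 with a 95% interval from -0.16 to 0.22.

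Among the eEF1B subunits, Eef1b2 (chr1:63176831-63180486) had 1616, 1793 and 1826 CPM in controls and 1637, 1521 and 1460 CPM in knockdown lysates. Only siKrr1 A reached into the control range, just above siGFP, and the mean was 88.2% of the control mean. The log2 fold change of -0.18 ± 0.08 did not pass after adjustment (edgeR adjusted p = 0.224). Eef1d (chr15:75894796-75909784), the other exchange factor, had 554, 588 and 617 CPM against 674, 617 and 548 CPM. Its highest and its lowest library were both siKrr1 libraries. Eef1g (chr19:8967041-8978180), the scaffold subunit, was among the steadier mRNAs at 269, 253 and 271 CPM in controls and 262, 274 and 243 CPM in siKrr1 libraries. The 95% intervals of the log2 fold change ran from -0.12 to 0.25 for Eef1d and from -0.18 to 0.13 for Eef1g, so changes of up to these sizes are compatible with these 3 against 3 libraries.

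The remaining 4 genes act beside elongation, and in each of them all 3 siKrr1 libraries lay below all 3 controls in RNA. That arrangement was found in 13.4% of all genes tested. Gnb2l1 (Rack1, chr11:48800360-48806241), a scaffold protein on the head of the small subunit, had 6099, 6028 and 5964 CPM in controls and 5840, 5675 and 5582 CPM after knockdown. The separation was narrow: the mean was 94.5% of the control mean and the log2 fold change -0.08 ± 0.07 (edgeR adjusted p = 0.585). Pabpc1 (chr15:36595658-36609581), which binds the poly(A) tail and joins it to the initiation complex, had 136, 141 and 153 CPM against 131, 128 and 124 CPM. Its log2 fold change was -0.17 ± 0.07 (edgeR adjusted p = 0.205). Nap1l1 (chr10:111472882-111498150), a histone chaperone, had 144, 136 and 141 CPM against 124, 125 and 129 CPM, with a log2 fold change of -0.16 ± 0.07 (edgeR adjusted p = 0.205). Nap1l1 lies 475 kb from Krr1 on the same chromosome, and whether the position bears on its values was not tested.

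Tpt1 (chr14:75845256-75848303), the translationally controlled tumour protein, had the lowest log2 fold change of the members and the widest spread. Its RNA was 50.7, 38.8 and 39.0 CPM in controls and 32.0, 38.1 and 30.0 CPM after knockdown. The siGFP library stood above the other controls, and siKrr1 C lay just below them. The log2 fold change was -0.36 ± 0.13 (edgeR adjusted p = 0.127), and without siGFP it was -0.21 (edgeR adjusted p = 0.417). RefSeq names 7 pseudogenes of Tpt1, 2 of Eef1a1 and 1 of Eef2, and none of these 10 has an entry in the tables. As only uniquely aligned reads were counted, reads shared with such copies would be lost, and the levels of these 3 genes are uncertain. Only copies named after a member were counted here. Copies under other names may affect other members too, and the ribosomal protein and other TOP mRNAs compared below.

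**Figure D1:**
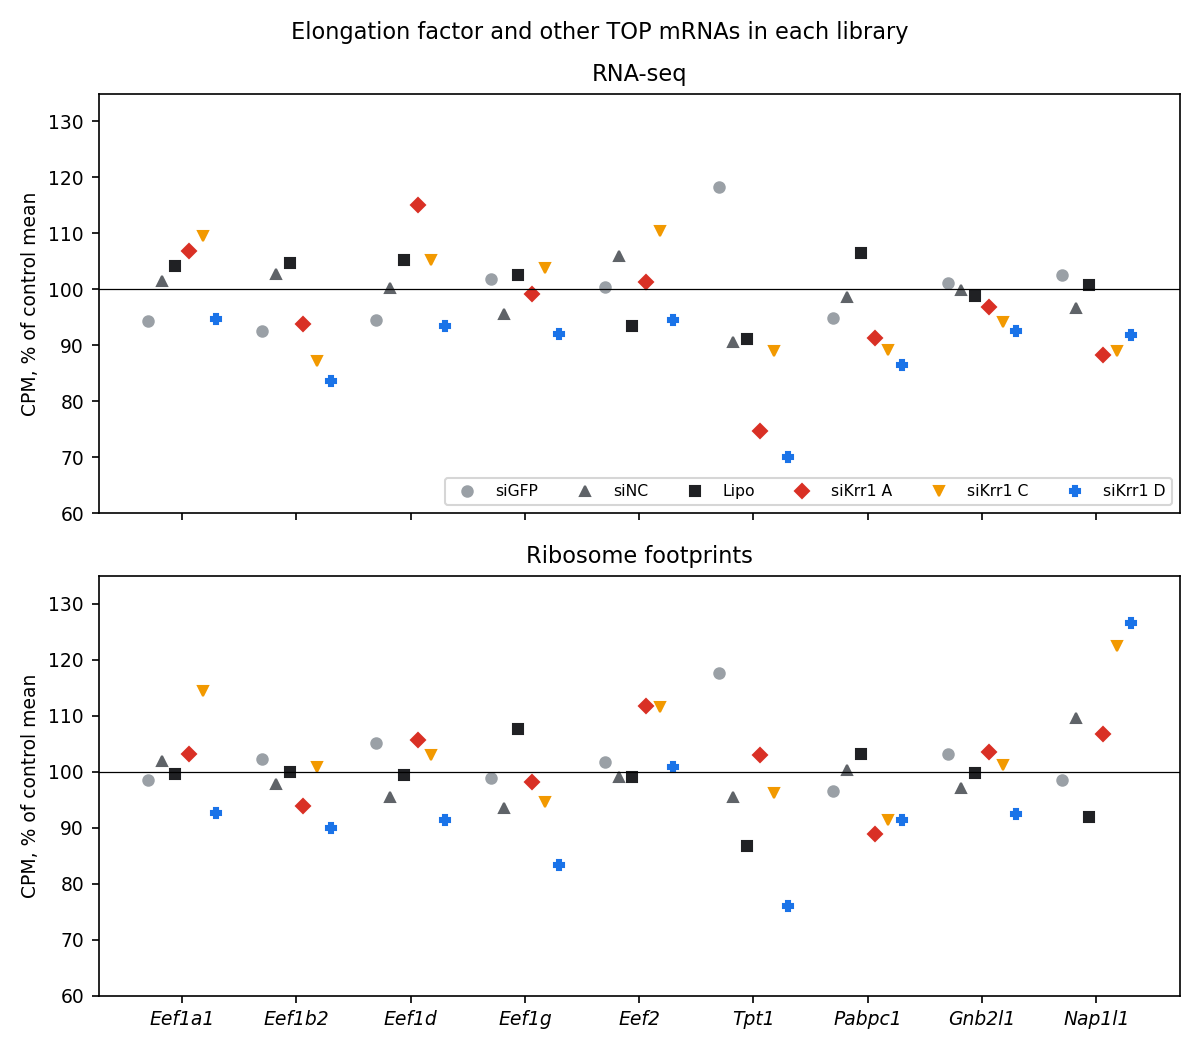
Level of each member (CPM, as a percent of the mean of the 3 controls; the axis starts above 0) in the 6 RNA libraries (top) and the 6 footprint libraries (bottom), 1 symbol per library. In RNA the siKrr1 points of Tpt1, Pabpc1, Gnb2l1 and Nap1l1 all lie below their controls, and in footprints Nap1l1 stands highest, at a mean of 119% after knockdown.

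Footprints, which count ribosomes on the mRNAs, showed no call among the members either. Of 13287 genes, 6.07% were called by edgeR at an adjusted p under 0.05, while 0 of 9 members were, and DESeq2 called 0. At an unadjusted p under 0.05 there were 2 members, Pabpc1 lower and Nap1l1 higher, and 22.5% of all genes. The median log2 fold change of the members was -0.01 and that of all genes 0.01.

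Eef1a1 footprints were 1167, 1206 and 1179 CPM in controls and 1221, 1354 and 1098 CPM after knockdown. The controls were tight and the knockdown lysates lay on either side of them. Eef2 footprints were 2527, 2461 and 2458 CPM in controls and 2774, 2770 and 2501 CPM after knockdown. Both siKrr1 A and C lay above every control and siKrr1 D among them, with a log2 fold change of 0.11 ± 0.06 (edgeR adjusted p = 0.264).

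The eEF1B subunits overlapped between the groups as well. Eef1b2 had 1418, 1355 and 1384 CPM against 1302, 1397 and 1246 CPM, and Eef1d 753, 684 and 712 CPM against 758, 738 and 655 CPM. The Eef1d means were equal within their error, at 717 ± 34.5 and 717 ± 54.6 CPM (SD, n = 3). Eef1g had 190, 180 and 207 CPM against 189, 182 and 160 CPM, so only siKrr1 D lay outside the control range. The log2 fold changes of the 3 subunits were -0.08 ± 0.06, 0.00 ± 0.07 and -0.12 ± 0.07.

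Pabpc1 was the only member whose footprints were lower in every siKrr1 lysate than in every control, an arrangement that 13.6% of all genes tested had. Its footprints were 570, 592 and 610 CPM in controls and 525, 539 and 539 CPM after knockdown, a log2 fold change of -0.14 ± 0.05 (edgeR adjusted p = 0.118). The difference had the same sign and a like size in RNA and footprints. Gnb2l1 footprints were 4090, 3848 and 3960 CPM against 4104, 4017 and 3666 CPM, so here the groups overlapped, with siKrr1 D alone below the controls. Tpt1 footprints were 116, 94.2 and 85.6 CPM against 102, 94.9 and 75.01 CPM, again with siGFP the highest.

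Nap1l1 was the member whose footprints lay highest relative to controls. They were 119, 132 and 111 CPM in controls and 128, 147 and 152 CPM after knockdown. Only siKrr1 A lay within the control range, below siNC, and the mean after knockdown was 119% of the control mean. The log2 fold change was 0.25 ± 0.08 (edgeR adjusted p = 0.103). It passed without siKrr1 A (0.31, edgeR adjusted p = 0.0317) and without the filter on low counts (0.24, edgeR adjusted p = 0.0421). It did not pass with any other library left out (edgeR adjusted p from 0.106 without siNC to 0.349 without Lipo). Nor did it pass with RLE factors (edgeR adjusted p = 0.107), library size only (edgeR adjusted p = 0.0755) or DESeq2 (DESeq2 adjusted p = 0.0727).

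**Figure D2:**
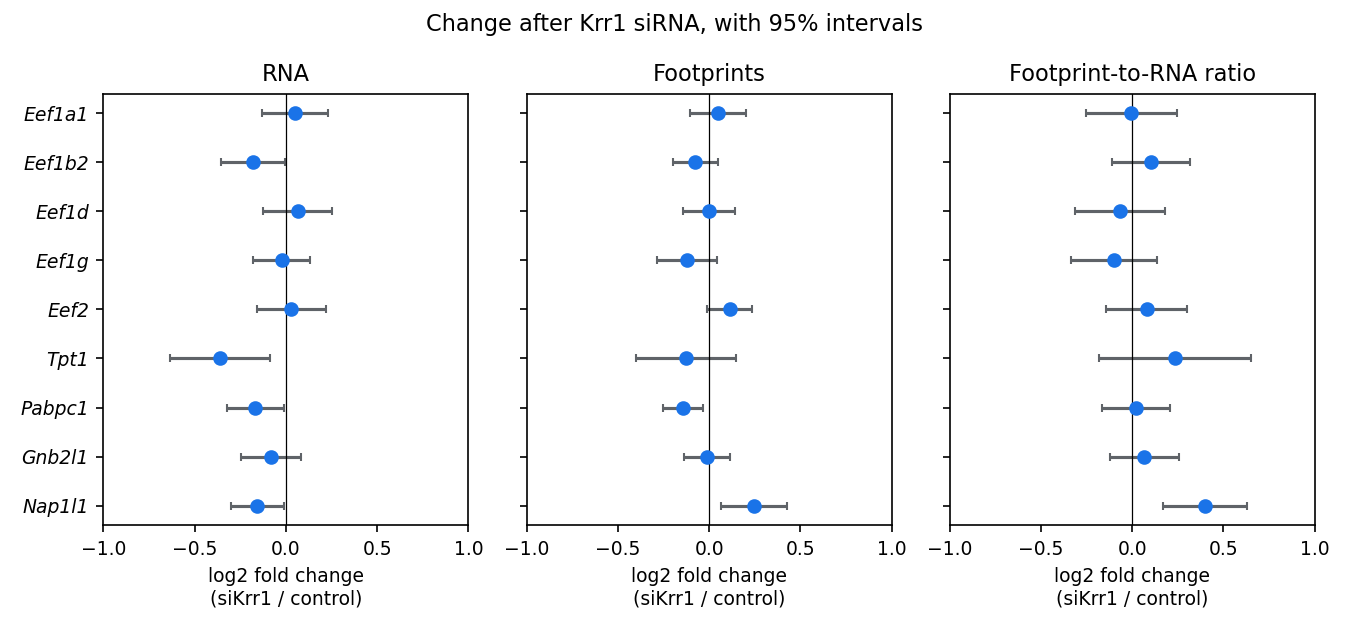
Log2 fold change of siKrr1 over control for each member in RNA, in footprints and in footprints relative to RNA, with bars for the 95% interval from the fit across all genes. Every interval lies within -1 to 1, and Nap1l1 is the member whose interval for footprints relative to RNA lies furthest above 0.

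All 9 members had 95% intervals of the log2 fold change within -1 to 1 in each of the 3 comparisons. Within the narrower range of -0.5 to 0.5 lay 8 members in RNA, 9 in footprints and 7 in footprints relative to RNA. The 9 genes together took 1.35% to 1.41% of the counts on genes in the RNA libraries and 1.03% to 1.13% in the footprint libraries.

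The ratio of footprint to RNA level within a lysate follows how heavily an mRNA is occupied by ribosomes, here also called translational efficiency. Its change after knockdown was tested as an interaction term (assay by knockdown) in a single fit of all 12 libraries. No gene was called by edgeR, so the share called was 0% of 14236 genes and 0 of 9 members, while 2.37% of all genes and 1 member, Nap1l1, were at an unadjusted p under 0.05. DESeq2 called 2 genes and the fit with the lysate as a block 6, none of them members. The median change of the members was 0.07 and that of all genes 0.00.

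For Nap1l1 the ratio was 0.824, 0.973 and 0.781 in controls and 1.04, 1.18 and 1.18 after knockdown. Every knockdown lysate lay above every control, which 6.82% of 13100 genes did. The log2 change was 0.40 ± 0.11 (SE, 95% interval 0.17 to 0.63), with an unadjusted p of 0.00200 in the edgeR fit and an edgeR adjusted p of 1.00. With the lysate as a block the change was 0.40 ± 0.08 (edgeR adjusted p = 0.180).

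The ratio of Tpt1 was 2.29, 2.43 and 2.19 in controls and 3.18, 2.489 and 2.497 after knockdown, the only other member without overlap between the groups. Most of the distance lay in siKrr1 A: the log2 change was 0.23 ± 0.20, and 0.11 without that lysate. For Eef1a1 the ratios were 0.525, 0.505 and 0.481 against 0.486, 0.525 and 0.493, so siKrr1 and control lysates covered the same range. Pabpc1 was as steady, at 4.195, 4.192 and 3.99 against 4.02, 4.22 and 4.35. The remaining 5 members overlapped between groups, with log2 changes from -0.10 for Eef1g to 0.10 for Eef1b2.

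**Figure D3:**
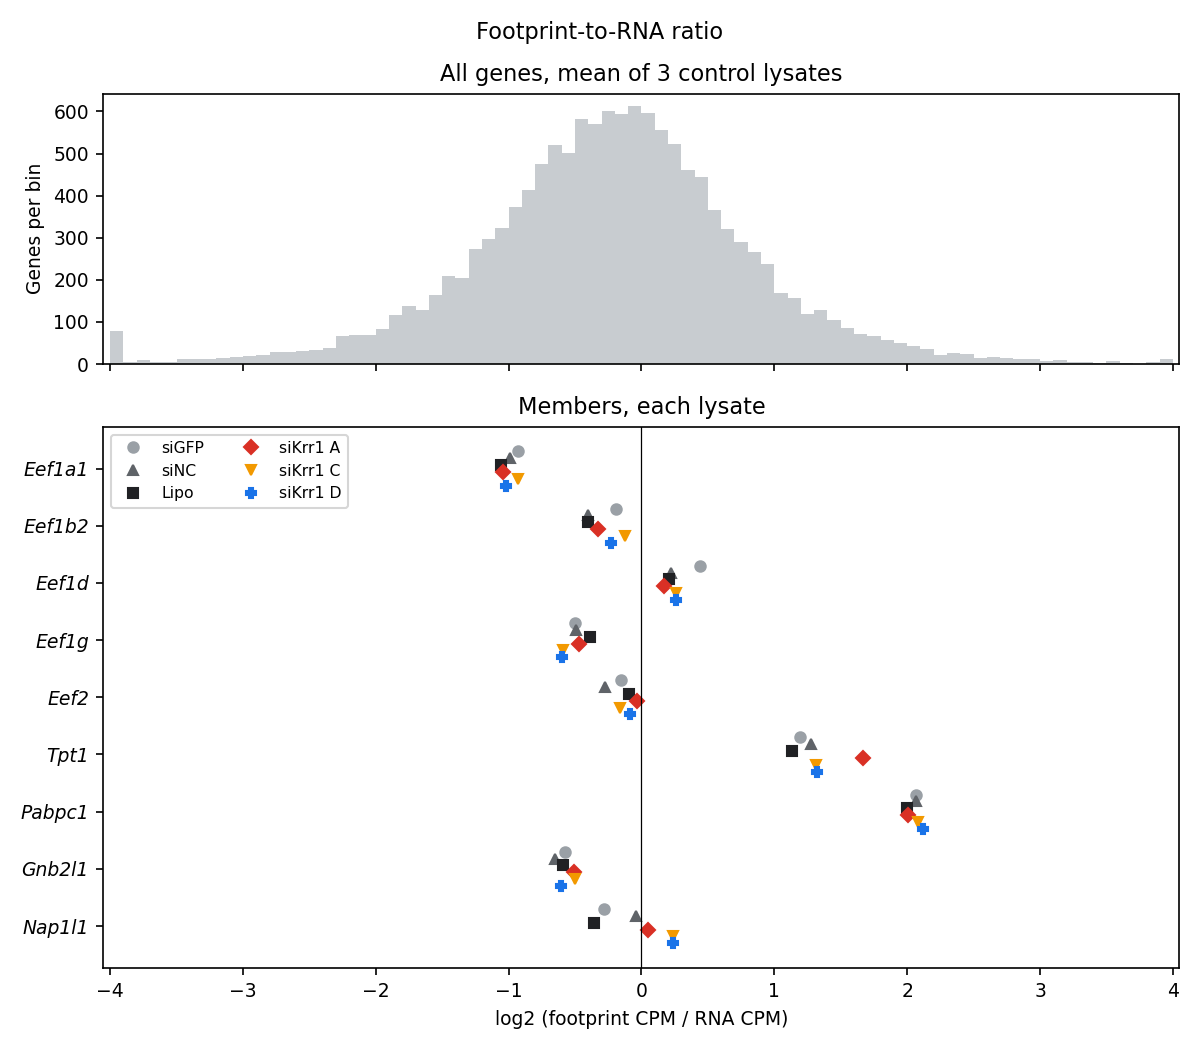
Footprint-to-RNA ratio on a log2 scale: the distribution of the control mean over 13100 genes, with values beyond -4 or 4 drawn in the end bins, and the members' values in each lysate. Pabpc1 and Tpt1 lie in the upper tail and Eef1a1 at the 19.5th percentile, and the siKrr1 lysates of Nap1l1 and Tpt1 lie to the right of their controls.

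The members did not share a common footprint-to-RNA ratio in control cells. The ratio of Pabpc1 was 4.13 in controls, at the 98.1th percentile of 13100 genes, and that of Tpt1 was 2.30, at the 92.7th. Eef1d (1.22, 71.6th percentile), Eef2 (0.886, 51.1th), Nap1l1 (0.856, 48.9th) and Eef1b2 (0.795, 43.8th) were nearer the middle. Eef1g (0.728), Gnb2l1 (0.657) and Eef1a1 (0.503) followed, and Eef1a1 was at the 19.5th percentile. The control SD of the log2 ratio was 0.04 for Pabpc1, 0.06 for Eef1a1 and 0.16 for Nap1l1 (n = 3), so the step from Pabpc1 to Tpt1 and from there to Eef1d was larger than the spread over lysates. Neighbours in the middle of the order, Eef2, Nap1l1 and Eef1b2, did not differ beyond it. The RNA reads cover the whole transcript and footprints mainly the coding sequence, so such a ratio compares genes only roughly. Levels are not compared between genes per length. Reads shared with pseudogenes would be lost, so at least the ratios of Eef1a1, Eef2 and Tpt1 are uncertain for that reason too.

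The members also differed in how far they varied over all 6 libraries of an assay. Gnb2l1 RNA had a coefficient of variation of 3.48%, at the 6.48th percentile of the 2514 genes with at least 100 CPM, whose median was 7.17%. Its footprints varied by 4.22%. Tpt1 varied most, by 19.0% in RNA and 14.7% in footprints, and its counts were the lowest of the members in each assay. Nap1l1 footprints varied by 12.3%, the 88.6th percentile of 2272 genes, whose median was 5.997%.

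A further regularity was in which knockdown lysate a member was lowest. In RNA siKrr1 D had the lowest level of the 3 knockdown libraries for 8 of 9 members, with Nap1l1 lowest in siKrr1 A, while siKrr1 D was lowest for 36.2% of all genes tested. In footprints siKrr1 D was lowest for 7 of 9 members, with Pabpc1 and Nap1l1 lowest in siKrr1 A, against 32.0% of all genes. Cytosolic ribosomal protein genes, the main body of TOP mRNAs, were arranged alike, with 66 of 85 lowest in siKrr1 D in RNA and 62 of 85 in footprints. This set was taken by symbol and includes paralogs such as Rpl22l1, Rpl3l and Rps27l. Among the knockdown lysates Krr1 was highest in siKrr1 D by RNA, with 41.5% left, but in siKrr1 C by footprints, with 37.5% left against 31.4% in siKrr1 D.

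The median over the members of the log2 level relative to the control mean was -0.05, -0.09 and -0.12 in the RNA of siKrr1 A, C and D. In footprints it was 0.05, 0.02 and -0.13, so only siKrr1 D was below all controls, which ran from -0.03 to 0.03. Ribosomal protein genes had medians of -0.07, -0.08 and -0.30 in RNA and -0.04, 0.01 and -0.16 in footprints. When single libraries were left out, the members' median change ranged from -0.10 to -0.06 in RNA and from -0.05 to 0.03 in footprints.

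**Figure D4:**
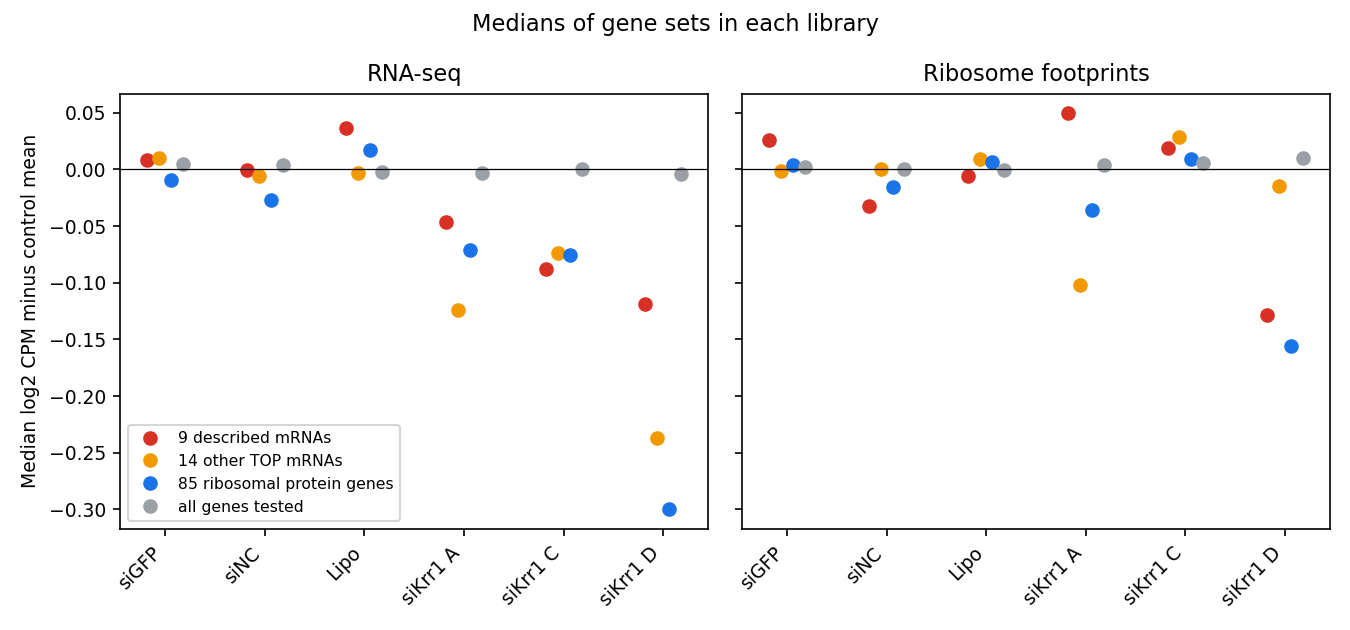
Median log2 level relative to the control mean in each library for the 9 members, 14 other TOP mRNAs, 85 ribosomal protein genes and all genes tested, in RNA and footprints. In the RNA of siKrr1 A, C and D the members lie at -0.05, -0.09 and -0.12, while the ribosomal protein genes reach -0.30 in siKrr1 D.

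Members did not all move together from library to library. Over the 12 libraries, with each gene centred within its assay, the correlation of a member with the mean of the other members was highest for Gnb2l1 (Pearson r 0.823) and Eef1b2 (0.656). It was 0.265 for Eef2 and -0.205 for Nap1l1. The genes outside the set most like the members' mean, among 6108 genes with at least 20 CPM in each assay, were Rpl8 (r 0.945), a large-subunit ribosomal protein, the small nucleolar RNA Snord87 (0.944), Wdr46 (0.938), the release factor gene Gspt1 (0.922) and Bcs1l (0.919). Least like it were Wdr11 (-0.923) and Lrch3 (-0.901). Ribosomal protein genes made up 9 of the 100 genes most like the members and 40 of the 6108. These values are descriptions: the 12 points come from 6 lysates, each counted in both assays, and include the difference between the groups.

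Several members carry small nucleolar RNA genes within their bounds, which guide the modification of ribosomal RNA. None of the 5 in the RNA table passed the test. Snora31, inside Tpt1, was at 26.7, 36.6 and 34.6 CPM in controls and 23.6, 27.4 and 24.7 CPM in siKrr1 libraries, so the groups overlapped, with siKrr1 C just above siGFP, and the log2 fold change was -0.37 ± 0.12 (edgeR adjusted p = 0.114). Its host's value was -0.36, although the siGFP library was the highest control for the host and the lowest for Snora31. Snora41 in Eef1b2 had -0.42 ± 0.18 (edgeR adjusted p = 0.207), and Snord96a and Snord95 in Gnb2l1 had -0.26 and -0.17. Snord37, inside Eef2, had 0.22 ± 0.20 (edgeR adjusted p = 0.588). The libraries held fragments of 40 to 60 nt, so these levels count pieces of RNA. Whether the pieces came from the small RNAs or from unspliced host RNA was not tested.

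The wider translation machinery was described through lists. Of 14 other mRNAs known to carry a TOP tract (Rpsa and Rps6 among them are also ribosomal protein genes), 13 had a log2 fold change below 0 in RNA, against 50.2% of all genes, and their median was -0.17. Eif3f, a subunit of the initiation factor eIF3, fell in RNA. It was at 184, 165 and 177 CPM in controls and 150, 144 and 141 CPM after knockdown, a log2 fold change of -0.27 ± 0.07 (edgeR adjusted p = 0.0473). That call was lost with each of the 6 libraries left out in turn (edgeR adjusted p from 0.0699 to 0.197) and with scaling to library size only (0.0591), and its footprints overlapped between groups at 601, 578 and 608 CPM against 610, 607 and 564 CPM. In footprints none of the 14 was called and their median was -0.02. Of 85 ribosomal protein genes, 1 fell in RNA, where 2.11% of all genes fell. It was the paralog Rpl22l1, with a log2 fold change of -0.59 ± 0.08 (edgeR adjusted p = 0.00601). In footprints 2 rose and 2 fell, where 3.39% of all genes rose and 2.68% fell. In RNA 75 of the 85 had a log2 fold change below 0 and 10 above. At an unadjusted p under 0.05, edgeR found 20 of them lower (9.83% of all genes) and 1 higher. Their medians were -0.15 in RNA and -0.08 in footprints. Some of these levels were low: only 40 of the 85 had a mean of at least 20 CPM in each assay. Rps6, for example, was at 17.7 CPM in control RNA and 4.19 CPM in control footprints.

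Other parts of elongation and termination showed no calls in RNA, footprints or their ratio. None of 11 further elongation and rescue factors was called, and their median log2 fold change was 0.02 in RNA and 0.00 in footprints. The abundant Eif5a, whose product eases peptide bond formation at difficult sites, had 0.02 in RNA, and Vars, the valyl-tRNA synthetase that joins the eEF1 complex, 0.10. None of 12 enzymes that modify eEF2, eIF5A or eEF1A was called (medians -0.02 and -0.04), with Dohh and Dhps, which make the hypusine of eIF5A, at -0.13 and -0.10 in RNA. None of 9 termination and recycling factors was called (medians -0.05 and -0.05), with the release factor gene Etf1 at -0.05 and the recycling factor gene Abce1 at 0.01. At an unadjusted p under 0.05, edgeR found 2 of the 11 in RNA and 1 in footprints, none of the 12 in either, and 0 and 1 of the 9. Of all genes, 20.9% in RNA and 22.5% in footprints were under that p.

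No paralog of a member was called. Of 11 listed, 9 passed the filter, with medians of -0.02 in RNA and 0.06 in footprints, and edgeR found 1 at an unadjusted p under 0.05 in each assay. Eef1a2, the eEF1A form of neurons and muscle, was at 0.708, 0.820 and 0.648 CPM in control RNA and 1.45, 0.643 and 0.475 CPM after knockdown, so siKrr1 A lay above every control and siKrr1 C and D below. Pabpc4 had 20.6, 18.9 and 21.1 CPM against 20.8, 21.3 and 17.7 CPM. Both were far below the counts of Eef1a1 and Pabpc1.

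Among 26 regulators of TOP mRNAs and members of the mTORC1 pathway, 1 rose in RNA, where 2.69% of all genes did. In footprints 1 rose and 1 fell, where 3.39% of all genes rose and 2.68% fell. Sesn2, a leucine sensor and stress-induced inhibitor of mTORC1 signalling, was at 80.8, 71.2 and 73.1 CPM in control RNA and 102, 90.6 and 100 CPM after knockdown, a log2 fold change of 0.38 ± 0.08 (edgeR adjusted p = 0.0257). In footprints it was at 69.3, 68.6 and 71.7 CPM against 93.5, 87.9 and 91.6 CPM, a log2 fold change of 0.38 ± 0.06 (edgeR adjusted p = 0.00653). No siKrr1 library overlapped a control in either assay, but the share of all genes arranged this way upward is not given here. The RNA call was kept only without siKrr1 C among the 6 left-out libraries (edgeR adjusted p from 0.0107 to 0.128), and the footprint call was lost only without siNC (0.0503).

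Eif4ebp1, which binds eIF4E and is released from it when mTORC1 is active, had footprints of 347, 335 and 333 CPM in controls and 304, 296 and 267 CPM after knockdown. Every knockdown value was below every control, as in 13.6% of all genes tested, with a log2 fold change of -0.23 ± 0.06 (edgeR adjusted p = 0.0486). The call was lost without siGFP, siNC, Lipo or siKrr1 D, with an edgeR adjusted p of 0.0259 to 0.166 over the left-out libraries, and with scaling to library size only (0.0600). Eif4ebp1 RNA was lower as well, at 308, 312 and 320 CPM in controls and 271, 277 and 264 CPM after knockdown. Its log2 fold change was -0.21 ± 0.06 in RNA (edgeR adjusted p = 0.0861), and -0.02 ± 0.09 in footprints relative to RNA. Larp1, which binds the TOP tract at the cap, was not called and had a log2 fold change of -0.08 in RNA (edgeR adjusted p = 0.530) and -0.09 in footprints.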

How the data were processed

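The authors deposited raw read counts per gene symbol, from uniquely aligned reads. The submitters' processing notes name STAR, HTSeq and the build mm10. Versions, annotation and strand setting were not given in the sources used. Reads on no gene (31.2% to 33.4% of unique alignments in RNA, 57.5% to 63.3% in footprints) were kept out of library sizes. Genes were tested with edgeR 4.0.16 (limma 3.58.1, R 4.3.3): TMM factors, filterByExpr, quasi-likelihood test, Benjamini-Hochberg adjustment over all genes, calls under 0.05. Standard errors were taken from the F statistic, and CPM used TMM library sizes. DESeq2 1.42.0, other scalings, no filter, left-out libraries and a lysate block were alternatives. The script was tested on simulated data.

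The labels do not state separate cultures, so p-values measure the spread between these samples. The labels state that lysates were divided between the assays. Over 6117 genes the deviations from the group means in RNA and footprints of 1 lysate had r of 0.265 to 0.713, and those of different lysates of a group at most 0.00382. Deviations from a group mean cancel out within the group, so the values between lysates are lowered by the centring and give no separate contrast. Of 23420 symbols, 23284 matched the RefSeq table. Knockdown columns carry letters and titles numbers, so columns were assigned to groups only. Named genes were the 9 members, Krr1, Eef1a2, Pabpc4, called or else abundant list genes, and the 5 most and 2 least similar genes. The members and lists were chosen with earlier results of these data known. Levels per coding length were not computed, as no lengths were used here.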

Additional observations from a re-analysis of the deposited data

Results flagged for a closer look

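Nap1l1 was singled out because its mean after knockdown lay below the control mean in RNA and above it in footprints. In RNA all 3 siKrr1 libraries were below every control. In footprints all 3 were above the control mean, but siKrr1 A lay below siNC, so the groups overlapped. The difference between the assays was 0.40 on the log2 scale (edgeR unadjusted p = 0.00200, adjusted p = 1.00, and adjusted p = 0.180 with the lysate as a block), so it did not pass the correction over all genes. No outlier test within a group was run, since each group had 3 libraries.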

How the results depend on the processing

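The member medians kept their sign or moved by less than the spread between libraries under each alternative run. DESeq2 called 659 genes higher and 525 lower in RNA, and without a filter the counts were 582 and 477, against 378 and 296. In footprints no filter gave 784 and 616, against 450 and 356, and 1 member, Nap1l1 (0.24, edgeR adjusted p = 0.0421). For the footprint-to-RNA change, against 0, there were 2 genes higher with DESeq2 and 2 without a filter, and the lysate as a replicate block gave 5 higher and 1 lower. Values near 0 changed sign: Eef1d footprints with DESeq2 (-0.00392), RLE factors (-0.00401) and no filter (-0.00387), and, with library size only, Gnb2l1 footprints (0.0153) and the Eef1a1 footprint-to-RNA change (0.00672). Leaving out a library in turn gave 63 to 759 genes higher and 51 to 539 lower in RNA, 67 to 791 and 64 to 546 in footprints, 0 to 1 and 0 to 0 in the ratio, and 0 to 1 members called in footprints. Signs turned within these ranges: in RNA Eef2 (-0.0232 to 0.0896), Eef1d (-0.00800 to 0.147) and Eef1g (-0.0565 to 0.0280), in footprints Tpt1 (-0.219 to 0.00701), Gnb2l1 (-0.0491 to 0.0334), Eef1d (-0.0440 to 0.0614) and Eef1a1 (-0.0308 to 0.120), and in the ratio Eef1a1 (-0.0531 to 0.0172) and Eef1d (-0.105 to 0.000977). The causes were not tested. The block changed no call of a member. In the main fits the 95% intervals of Eef1b2, Tpt1, Pabpc1 and Nap1l1 in RNA excluded 0. So did those of Pabpc1 and Nap1l1 in footprints and of Nap1l1 in the ratio, but none of these changes passed the adjustment over all genes. All other intervals of the members covered 0, so with 3 libraries a group changes within them could not be told from 0.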
